A study of Mus musculus with 9 samples.

Results

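The colony-stimulating factors and their receptors were followed in mouse lung through ventilator-induced lung injury (VILI), the damage that mechanical ventilation with large breaths does to the lung. The 8 genes taken were the ligands Csf1, Csf2 and Csf3 and the receptor genes Csf1r, Csf2ra, Csf2rb, Csf2rb2 and Csf3r, out of 23503 named genes in the table. They were chosen by name, and all 8 were found and passed the filter on low values. Lung RNA was sequenced from 9 C57BL/6 mice, which were males of 6 to 8 weeks, with 3 mice per group. Control mice were anesthetized and intubated without ventilation, and both VILI groups had 4 hours of ventilation with breaths of 20 ml/kg. The lungs were taken right after ventilation (VILI 0 hours) or 6 hours later (VILI 6 hours). Both VILI groups also received pancuronium, a muscle relaxant, and anesthesia was kept up through ventilation, so that ventilation, these drugs and, at 6 hours, recovery cannot be told apart. Whole lung was used, so all cell types contribute to each value. In such bulk samples, fewer cells of a type and less RNA per cell cannot be told apart.

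CSF1 (M-CSF) keeps monocytes and macrophages alive through CSF1R, a receptor tyrosine kinase that also binds IL-34. CSF2 (GM-CSF) signals through an alpha chain that binds the ligand (Csf2ra) and a common beta chain (Csf2rb) shared with the IL-3 and IL-5 receptors, and mice carry an additional beta chain for IL-3 (Csf2rb2). In the lung, GM-CSF is made largely by the alveolar epithelium and is needed for alveolar macrophages to mature and clear surfactant. CSF3 (G-CSF) drives the production and release of neutrophils, and its receptor Csf3r is carried mainly by neutrophils and their precursors.

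Levels are given in FPKM (fragments per kilobase of transcript, scaled to the depth of the library), summed over the transcripts listed for a gene. FPKM is per length, so levels of different genes within a library can be set side by side. Column sums ran from 366360 to 388459 FPKM, and between 18176 and 18498 named genes were above 0 in a library. Sftpc, which encodes a surfactant protein of alveolar type 2 cells, led the 9 alveolar type 2 markers in each library, with 9684 to 12500 FPKM. Libraries of VILI 6 hours stood apart from each other. Over all tested genes, the root mean square log2 distance of VILI 6 hours replicate 1 averaged 0.55 to the controls and 0.8 to the other libraries of its group. VILI 6 hours replicate 3 lay farthest from the controls, at 0.91.

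A single limma fit of 17055 genes in the 9 libraries, on log2(FPKM + 0.1), gave the differences. A gene is said to have changed, or passed, at an unadjusted P under 0.05, which is the threshold of the study, and the Benjamini-Hochberg adjusted p over all tested genes is printed beside it. Both VILI groups were compared with the same 3 control libraries. In VILI 0 hours vs control, 2 of the 8 genes were upregulated (Csf2rb and Csf3r) and 1 was downregulated (Csf1), where 7.06% of all tested genes were upregulated and 10.0% downregulated. In VILI 6 hours vs control, 6 of the 8 were upregulated (Csf2, Csf3, Csf2ra, Csf2rb, Csf2rb2 and Csf3r) and 0 downregulated, against 7.94% and 13.1% of all tested genes. The 2 genes that did not pass the test at 6 hours were Csf1 and Csf1r, the macrophage ligand and its receptor. After adjustment over all 9 libraries, Csf3r alone of the 8 passed at either time, where 0.217% of all tested genes were upregulated at 0 hours and 0.469% at 6 hours. That count depends on single libraries. Without any 1 control library, Csf3r missed adjustment too (limma adjusted p = 0.115 to 0.174 at 0 hours and 0.0981 to 0.132 at 6 hours). Without VILI 6 hours replicate 1, the genes that passed adjustment at 6 hours were 5 (Csf3r, Csf3, Csf2rb, Csf2rb2 and Csf2ra, limma adjusted p = 0.00382 to 0.0459), where 8.24% of all tested genes were upregulated at an adjusted p under 0.05. At 0 hours they were then 2 (Csf3r and Csf2rb, adjusted p = 0.0021 and 0.037), against 3.85%.

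The median log2 fold change was 0.28 at 0 hours and 1.02 at 6 hours over the 7 genes without Csf3, which was listed at 0 in all controls, against -0.08 and -0.1 over all tested genes. Centring each library on its median moved all fold changes up by 0.09 at 0 hours and 0.11 at 6 hours. It moved the upregulated share of all changed genes from 41.3% to 53.8% at 0 hours and from 37.8% to 52.9% at 6 hours. After that centring, Csf1 no longer passed the test at 0 hours (log2 fold change -0.46, limma adjusted p = 0.352), while Csf2ra did (0.37, adjusted p = 0.243), and the 6 calls at 6 hours stood.

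**Figure D1:**
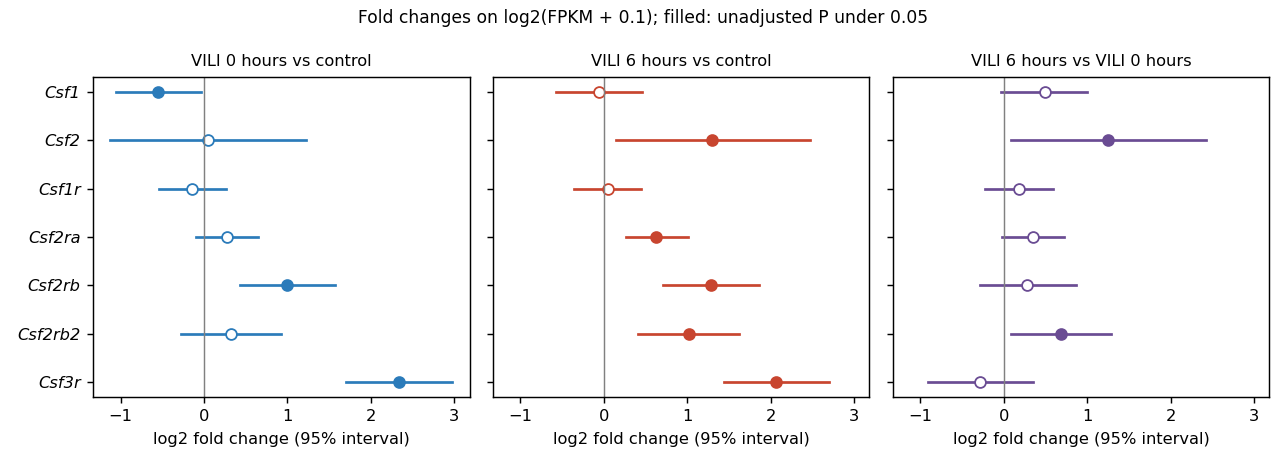
Log2 fold changes on log2(FPKM + 0.1) with 95% intervals from limma for 7 of the 8 genes in 3 comparisons (x axes, log2 units; rows, genes), with filled points where the unadjusted P was under 0.05. Csf3 is left out because it was listed at 0 in all controls. Csf3r lies farthest to the right in both comparisons with control, at 2.34 and 2.07, and Csf1r crosses 0 in each panel.

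Promoter sequence was matched for 5 of the 8 genes (Csf1, Csf2, Csf2ra, Csf2rb2 and Csf3r). It was missing for Csf3, Csf1r and Csf2rb. The stretches below lie upstream of the start given by RefSeq and leave out bases inside the annotated gene, and they show the receptor gene that changed most, the other receptor chain with a match and both ligands with RefSeq sequence. They are written 5′ to 3′ on the strand of the gene, in build GRCm38.p6, with capitals for the letters that matched a motif. Csf3r lies at chr4:126024409-126024549 (plus strand), Csf1 at chr3:107760470-107760719 (minus), Csf2 at chr11:54249900-54250149 (minus) and Csf2ra at chr19:61228430-61228668 (minus).
Csf3r: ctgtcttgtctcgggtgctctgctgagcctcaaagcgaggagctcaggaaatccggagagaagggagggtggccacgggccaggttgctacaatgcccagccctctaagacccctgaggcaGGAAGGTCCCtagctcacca
Csf1: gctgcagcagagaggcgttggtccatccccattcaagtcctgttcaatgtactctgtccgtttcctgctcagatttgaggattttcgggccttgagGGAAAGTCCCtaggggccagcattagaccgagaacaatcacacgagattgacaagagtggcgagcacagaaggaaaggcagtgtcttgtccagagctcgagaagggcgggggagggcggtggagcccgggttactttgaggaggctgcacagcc
Csf2: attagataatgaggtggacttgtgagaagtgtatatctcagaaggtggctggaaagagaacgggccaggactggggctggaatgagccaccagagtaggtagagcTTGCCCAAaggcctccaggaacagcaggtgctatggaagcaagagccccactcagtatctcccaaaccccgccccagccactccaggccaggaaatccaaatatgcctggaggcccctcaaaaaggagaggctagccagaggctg
Csf2ra: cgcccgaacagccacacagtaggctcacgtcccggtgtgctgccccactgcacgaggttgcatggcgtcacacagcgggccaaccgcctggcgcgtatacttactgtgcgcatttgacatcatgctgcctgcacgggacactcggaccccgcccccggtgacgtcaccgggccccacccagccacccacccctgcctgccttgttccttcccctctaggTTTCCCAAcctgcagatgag

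The 250 bases before the start given by RefSeq were searched on both strands for AP-1 (TGANTCA), the CK-1 element of cytokine promoters (GAGATTCC), PU.1 (GAGGAAGT), C/EBP (TTNNGNAA) and NF-kappaB sites. For Csf2 that window (54249900 to 54250149) does not reach the annotated gene, which starts at 54249667 on the minus strand. The bases between them, next to the annotated start, were not searched. The NF-kappaB match was GGAAGGTCCC in Csf3r and GGAAAGTCCC in Csf1, and 9.55% of 32851 RefSeq windows of the same length held such a match. The C/EBP match, on the opposite strand, was TTGCCCAA in Csf2 and TTTCCCAA in Csf2ra, where 36.8% of all windows held 1. Csf2rb2 had no match to these motifs in its window, and neither AP-1 (6.75% of all windows), CK-1 (0.755%) nor PU.1 (2.44%) letters were found in the 5 windows. These are matches of letters in a window, and binding was not measured.

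Csf3r, the G-CSF receptor gene (ENSMUSG00000028859, chromosome 4, 126024550 to 126044440), showed the largest fold change of the 7 genes with a level above 0 in control. Its level was 7.467, 7.086 and 6.288 FPKM in the controls, 23.67, 33.39 and 57.05 FPKM at 0 hours and 36.84, 24.65 and 27.89 FPKM at 6 hours. All 6 VILI libraries stood above all 3 controls, and the VILI groups overlapped each other. The mean rose from 6.95 ± 0.602 (SD, n = 3) to 38.0 ± 17.2 and 29.8 ± 6.31 FPKM. In VILI 0 hours vs control the fold change was 5.08 (log2 2.34, SE 0.28, limma adjusted p = 0.0242). In VILI 6 hours vs control it was 4.19 (log2 2.07, SE 0.28, adjusted p = 0.02). The VILI groups did not differ beyond their spread in the same limma fit (log2 -0.28, 95% interval -0.91 to 0.35, adjusted p = 0.786), though without VILI 0 hours replicate 1 the difference was -0.57 and passed (adjusted p = 0.493). An exact permutation test over the 3 groups gave p = 0.025 for Csf3r.

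The 2 transcript rows listed for Csf3r both stood higher in all VILI libraries than in all controls, though not by the same factor. The lower row stood at 1.487 to 2.556 FPKM in the controls, where the VILI libraries had 5.352 to 8.306 FPKM. For the higher row these ranges were 4.386 to 5.98 FPKM and 17.11 to 48.75 FPKM. The unadjusted P of Csf3r stayed under 0.05 in all 18 alternatives at both times. Its adjusted p rose above 0.05 when any 1 control library was left out, up to 0.174 at 0 hours and 0.132 at 6 hours, both without control replicate 3, and was 0.073 at 0 hours without VILI 0 hours replicate 2. It also did so at 0 and 6 hours with a replicate block (limma adjusted p = 0.0644 and 0.054) and with the higher row in place of the sum (0.0815 and 0.0581). VILI 0 hours replicate 3, which had the highest Csf3r, also had the highest summed level of 6 cardiac muscle markers (301.7 FPKM, against 135.6 to 167.0 FPKM in the other libraries), and the part of this in the result was not tested. Without that library the log2 fold change at 0 hours was 2.0 (limma adjusted p = 0.0447).

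Markers of neutrophils, the cells that carry most Csf3r, moved with it. All 11 neutrophil markers were upregulated at both times (against 7.06% and 7.94% of all tested genes), and their summed level was 77.18 to 80.01 FPKM in control, 627.8 to 1069 FPKM in VILI 0 hours and 513.4 to 2197 FPKM in VILI 6 hours. S100a9, a calcium-binding protein of neutrophils, held the largest part of that sum, and Ly6g was at 0 in some libraries. The part of neutrophil numbers in the Csf3r result was not tested. Among the VILI libraries the order of Csf3r was not that of the marker sum: VILI 6 hours replicate 3 had the highest marker sum and a Csf3r of 27.89 FPKM, and VILI 6 hours replicate 1 had the lowest marker sum and a Csf3r of 36.84 FPKM.

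**Figure D2:**
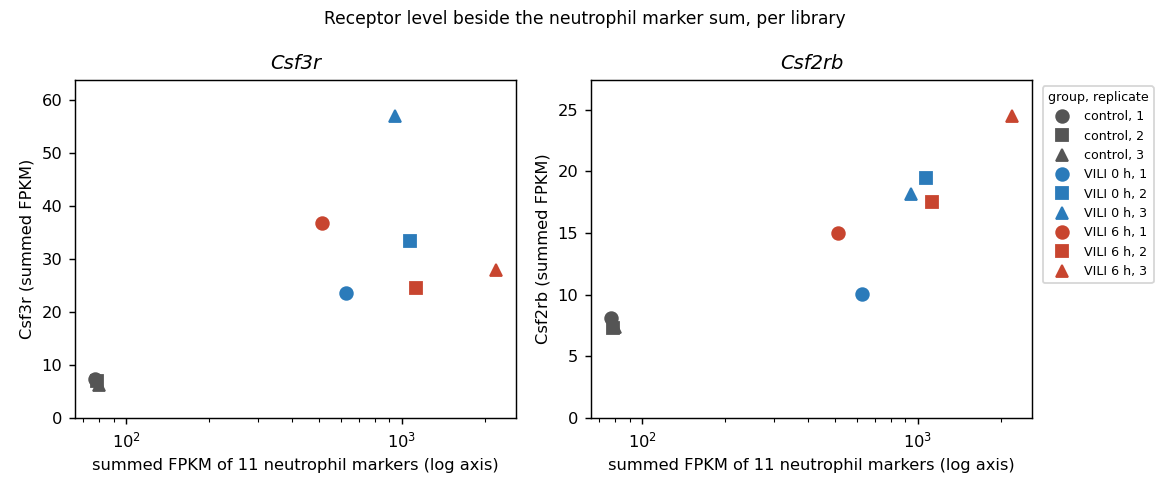
Csf3r (left) and Csf2rb (right), in summed FPKM on linear y axes, against the summed FPKM of 11 neutrophil markers on a log x axis, with 1 point per library (color, group; shape, replicate). The 3 controls lie together at 77.18 to 80.01 FPKM of markers with both receptors low, and the highest Csf2rb (24.5 FPKM) but not the highest Csf3r (57.05 FPKM) belongs to the library with the highest marker sum.

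Csf2rb, the common beta chain (ENSMUSG00000071713, chromosome 15, 78325752 to 78353847), was upregulated at both times. Its level was 8.091, 7.323 and 7.365 FPKM in control, 10.08, 19.47 and 18.17 FPKM at 0 hours and 15.05, 17.55 and 24.5 FPKM at 6 hours. All VILI libraries were above all controls, with VILI 0 hours replicate 1 closest to them. The mean rose from 7.59 ± 0.432 to 15.9 ± 5.09 and 19.0 ± 4.9 FPKM (SD, n = 3). The log2 fold change was 1.0 (SE 0.25, limma adjusted p = 0.102) at 0 hours and 1.29 (SE 0.25, adjusted p = 0.0559) at 6 hours. The unadjusted P held in all 18 alternatives at both times, and the exact permutation p over the 3 groups was 0.0214. The VILI groups did not differ beyond their spread by limma (0.28, 95% interval -0.29 to 0.86, adjusted p = 0.752).

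Csf2rb2, the IL-3 beta chain (ENSMUSG00000071714, chromosome 15, 78282507 to 78305721), neighbours Csf2rb and resembles it. Its level was 2.924, 2.653 and 2.165 FPKM in control, 2.779, 4.179 and 2.958 FPKM at 0 hours and 3.87, 4.914 and 7.741 FPKM at 6 hours. The 0 hours group overlapped the controls, and all libraries of 6 hours were above all controls. The log2 fold change was 0.33 (SE 0.27, limma adjusted p = 0.562) at 0 hours and 1.02 (SE 0.27, adjusted p = 0.103) at 6 hours, and between the VILI groups it was 0.68 (adjusted p = 0.426). Of the windows of 100 bases in the longest Csf2rb2 transcript, 7.2% were also found in a Csf2rb transcript, and of windows of 50 bases 19.0% were. How reads from such stretches were divided between these genes by the authors' estimate is not known, so the split between them is uncertain.

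Csf2ra, the chain that binds GM-CSF (ENSMUSG00000059326, chromosome 19, 61223957 to 61228429), was upregulated at 6 hours. Its level was 13.35, 12.46 and 13.11 FPKM in control, 13.01, 18.32 and 16.53 FPKM at 0 hours and 24.45, 16.43 and 20.44 FPKM at 6 hours. VILI 0 hours replicate 1 lay among the controls, and all libraries of VILI 6 hours lay above them. The log2 fold change was 0.28 (SE 0.17, limma adjusted p = 0.423) at 0 hours and 0.63 (SE 0.17, adjusted p = 0.1) at 6 hours. At 6 hours the unadjusted P held in all 18 alternatives, and at 0 hours it passed without VILI 0 hours replicate 1 (log2 0.42, limma adjusted p = 0.31). The ratio of Csf2rb to Csf2ra, chosen after the values were seen and given with no test, was 0.562 to 0.606 in control, 0.775 to 1.1 at 0 hours and 0.615 to 1.2 at 6 hours.

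Csf1r, the receptor of M-CSF and IL-34 (ENSMUSG00000024621, chromosome 18, 61100598 to 61132149), was the highest of the 8 genes in control. Its level was 26.79, 24.79 and 26.57 FPKM in control, 21.46, 28.02 and 22.07 FPKM at 0 hours and 35.72, 21.39 and 25.5 FPKM at 6 hours. The groups overlapped, and VILI 6 hours replicate 1 was the highest library. No difference was larger than the spread by limma: the log2 fold change was -0.14 (95% interval -0.54 to 0.27, adjusted p = 0.739) at 0 hours and 0.05 (-0.36 to 0.45, adjusted p = 0.893) at 6 hours. The lower of its 2 transcript rows stood at 3.39 and 4.777 FPKM in VILI 0 hours replicates 2 and 3 and between 0.2527 and 0.6539 FPKM in the other libraries.

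Markers of monocytes and of interstitial and alveolar macrophages, which carry Csf1r or the GM-CSF receptor, were set beside these values. Their counts stand against 7.06% of all tested genes upregulated and 10.0% downregulated at 0 hours and 7.94% and 13.1% at 6 hours. Of 8 monocyte markers, 1 was upregulated at 0 hours and 4 at 6 hours, with summed levels of 168.5 to 188.2 FPKM in control, 142.3 to 303.2 FPKM in VILI 0 hours and 251.9 to 323.6 FPKM in VILI 6 hours. Of 8 interstitial macrophage markers, 2 were upregulated at 0 hours and 4 at 6 hours, and their sum was 331.7 to 375.9, 391.7 to 449.8 and 361.0 to 577.6 FPKM. Of 11 alveolar macrophage markers, 6 were upregulated at 0 hours, and 1 was upregulated and 1 downregulated at 6 hours, with sums of 328.9 to 412.6, 498.2 to 559.6 and 344.0 to 735.1 FPKM. VILI 6 hours replicate 1 was highest in the alveolar macrophage sum, in Csf1r and in Csf2ra. Other lists of myeloid cells differed from these. All 11 neutrophil markers were upregulated at both times, while of 6 patrolling monocyte markers 0 changed at 0 hours and 1 was downregulated at 6 hours. The part of any of these cells in the receptor results was not tested.

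**Figure D3:**
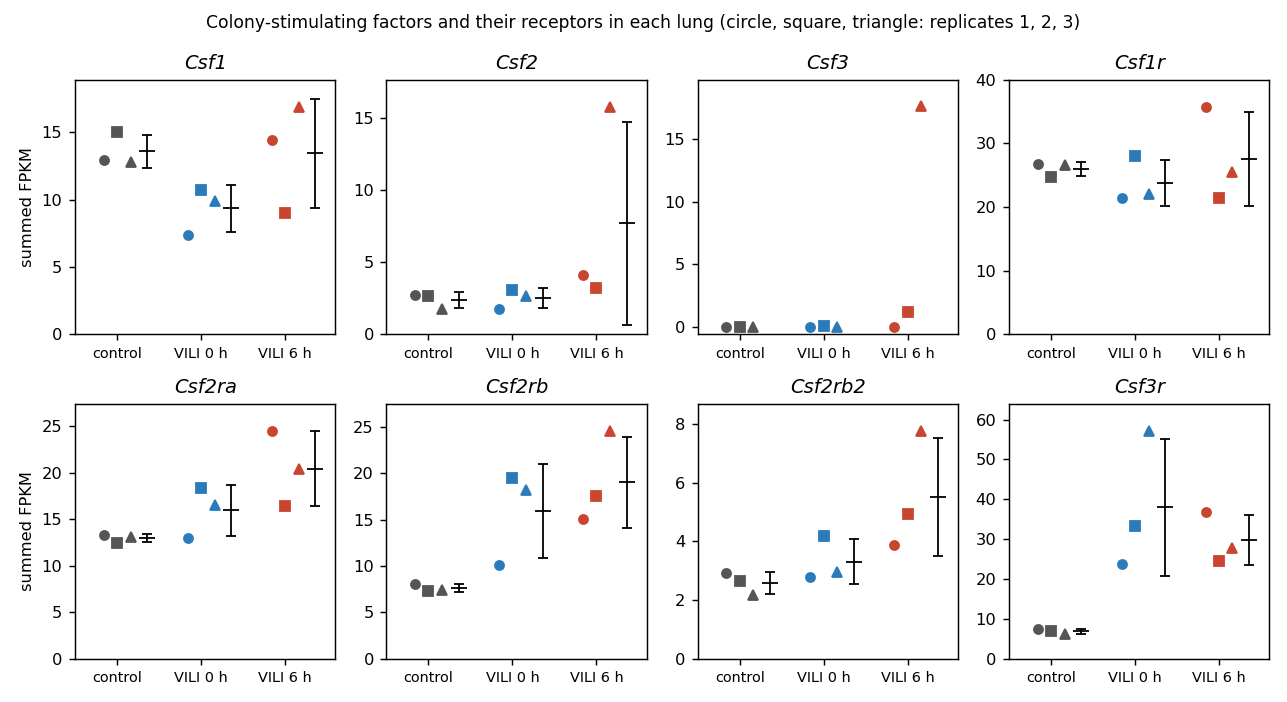
Summed FPKM of each of the 8 genes (y axes, linear) in the 3 groups, with 1 point per library (shape, replicate) and the mean ± SD in black beside each group of 3. No mean is drawn for Csf3, which was listed at 0 in 5 libraries. The Csf3r and Csf2rb points of both VILI groups lie above all controls, and a single library of VILI 6 hours carries 17.66 FPKM of Csf3 and 15.78 FPKM of Csf2.

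Csf3, the G-CSF gene (ENSMUSG00000038067, chromosome 11, 98701263 to 98703629), was listed at 0 in all 3 controls. It was 0, 0.07532 and 0.0202 FPKM in VILI 0 hours and 0, 1.17 and 17.66 FPKM in VILI 6 hours. VILI 6 hours replicate 1 stood with the controls, and replicate 3 held nearly all of the signal. The test passed in VILI 6 hours vs control (limma adjusted p = 0.192) and between the VILI groups (log2 difference 3.35, SE 1.44, adjusted p = 0.468), while the exact permutation p over the 3 groups was 0.143. Without VILI 6 hours replicate 3, neither comparison passed, and the log2 difference between the VILI groups was 1.47. Without VILI 6 hours replicate 1, which had no Csf3 listed, that difference was 5.21 (limma adjusted p = 0.0287), and the comparison with control had an adjusted p = 0.00424. The comparison with control also missed the threshold without control replicate 1, 2 or 3 or VILI 6 hours replicate 2, and that between the VILI groups without any 1 library other than VILI 6 hours replicate 1. The call between the VILI groups was lost in 15 of 18 alternatives, and its size followed the pseudocount (log2 difference 4.33 with 0.01 and 1.74 with 1, neither of which passed).

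Csf2, the GM-CSF gene (ENSMUSG00000018916, chromosome 11, 54247271 to 54249667), was upregulated at 6 hours. Its level was 2.755, 2.635 and 1.783 FPKM in control, 1.744, 3.11 and 2.654 FPKM at 0 hours and 4.091, 3.226 and 15.78 FPKM at 6 hours. Control and VILI 0 hours overlapped, and all libraries of VILI 6 hours were above both groups, with replicate 3 far above the other two. The log2 fold change at 6 hours was 1.3 (SE 0.52, limma adjusted p = 0.201), and at 0 hours it was 0.05 (95% interval -1.12 to 1.22, adjusted p = 0.972). Without VILI 6 hours replicate 3 the change at 6 hours was 0.61 and did not pass, and it also missed the threshold without control replicate 2 (1.38) or 3 (1.11). The exact permutation p over the 3 groups was 0.0464.

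Csf1, the M-CSF gene (ENSMUSG00000014599, chromosome 3, 107741048 to 107760469), was the most abundant ligand in control and fell at 0 hours. Its level was 12.97, 15.0 and 12.8 FPKM in control, 7.39, 10.75 and 9.933 FPKM at 0 hours and 14.44, 8.987 and 16.89 FPKM at 6 hours. All VILI 0 hours libraries were below all controls, and VILI 6 hours overlapped both groups, with replicate 2 low. The share of all tested genes with such a downward separation is not given here, so how common it was is left unstated. The log2 fold change was -0.55 (SE 0.23, limma adjusted p = 0.266) at 0 hours and -0.06 (95% interval -0.58 to 0.46, adjusted p = 0.894) at 6 hours. The fall missed the threshold in 9 of 18 alternatives, among them without control replicate 1, 2 or 3 (log2 -0.58, -0.47 and -0.59) and without VILI 0 hours replicate 1 or 3 (-0.39 and -0.6). Taking the highest of its 6 transcript rows in place of their sum gave -0.32 (limma adjusted p = 0.639).

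The groups did not overlap, upward, for Csf2rb and Csf3r at 0 hours and for Csf2, Csf2ra, Csf2rb, Csf2rb2 and Csf3r at 6 hours, where 12.4% and 9.56% of all tested genes showed such separation. A pairwise exact permutation test of 3 against 3 libraries cannot go below p = 0.1, which each of these 7 separations reached. Between the VILI groups, 3 of the 8 genes were upregulated (Csf2, Csf3 and Csf2rb2) and 0 downregulated, against 5.04% and 5.27% of all tested genes, and Csf2 alone showed no overlap, against 6.16%. None of the 17055 genes passed adjusted limma in that comparison, where 1757 had an unadjusted P under 0.05 (3965 without VILI 6 hours replicate 1). Csf2 missed the threshold there without VILI 6 hours replicate 3 (log2 0.56) or without VILI 0 hours replicate 1 or 3 (1.02 and 1.31). Csf2rb2 missed it without the same 3 libraries (0.41, 0.57 and 0.62). Without replicate 2 of VILI 0 hours or of VILI 6 hours, Csf1 (0.6 and 0.75) and Csf2ra (0.46 and 0.5) passed upward there, and Csf2ra also did with median-centred libraries (0.37).

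Within each library, the receptor transcripts changed in composition. Csf3r made up 12.4% ± 0.914 of the summed receptor FPKM in control, 38.2% ± 9.27 at 0 hours and 29.0% ± 2.74 at 6 hours (SD, n = 3, exact permutation p = 0.00357). The Csf1r share was 46.4% ± 1.27, 25.4% ± 5.85 and 26.7% ± 3.62 (exact permutation p = 0.0286, n = 3), though its level did not differ beyond the spread. The Csf2ra share was 23.1%, 16.7% and 19.9% (exact permutation p = 0.00357), while the Csf2rb share (13.5%, 16.2% and 18.9%, exact p = 0.189) and the Csf2rb2 share (4.59%, 3.5% and 5.47%, exact p = 0.286) did not pass unless VILI 6 hours replicate 1 was left out (exact p = 0.0393 and 0.0107). The summed receptor level was 56.1 ± 2.23, 97.1 ± 23.5 and 102 ± 15.8 FPKM (n = 3, exact permutation p = 0.025). Shares of a sum are bound to each other, and these p-values are unadjusted.

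Among the ligands, Csf1 held 85.1% ± 2.65 of the summed FPKM in control, 78.9% ± 1.88 at 0 hours and 59.5% ± 23.1 at 6 hours (SD, n = 3, exact permutation p = 0.0107). Csf2 held 14.9% ± 2.65, 20.8% ± 1.62 and 25.8% ± 4.88 (n = 3, exact permutation p = 0.00714), and its p stayed under 0.05 with each library left out. The test of the Csf1 share missed the threshold without control replicate 1, 2 or 3 or VILI 0 hours replicate 1 or 3 (exact p = 0.05, 0.0607, 0.0893, 0.0536 and 0.0607). Csf3 held 8.74% and 35.1% in VILI 6 hours replicates 2 and 3 and at most 0.54% in the other libraries. Without VILI 6 hours replicate 3, the difference in the Csf1 share at 6 hours minus control was -12.6 percentage points, in place of -25.6.

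**Figure D4:**
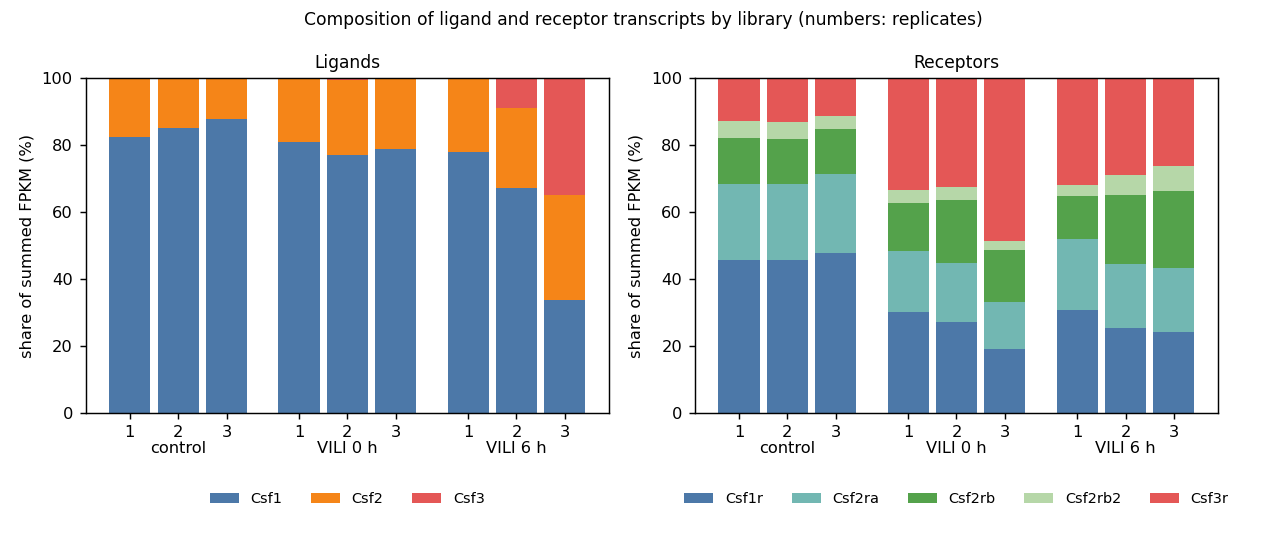
Stacked bars per library of the share of each ligand (left) and each receptor (right) in their summed FPKM (y axes, percent, from 0 to 100; numbers on the x axes are replicates). The Csf3r segment spans 26.3% to 48.9% in the VILI libraries and is narrower in each control, and a Csf3 segment is visible in 2 libraries of VILI 6 hours.

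The order of the mean levels also differed by group. In control it ran Csf1r (26.1 FPKM), Csf1, Csf2ra, Csf2rb, Csf3r, Csf2rb2, Csf2 and Csf3 (0), and the neighbours Csf1 and Csf2ra, Csf2rb and Csf3r, and Csf2rb2 and Csf2 overlapped. In VILI 0 hours Csf3r was first (38.0 FPKM), followed by Csf1r, Csf2ra, Csf2rb, Csf1, Csf2rb2, Csf2 and Csf3, and the neighbours Csf3r and Csf1r, Csf2ra and Csf2rb, Csf2rb and Csf1, and Csf2rb2 and Csf2 overlapped. In VILI 6 hours it ran Csf3r, Csf1r, Csf2ra, Csf2rb, Csf1, Csf2, Csf3 and Csf2rb2 (5.51 FPKM), and each gene overlapped the next.

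Counts of the lists that follow stand against 7.06% of all tested genes upregulated and 10.0% downregulated at 0 hours and 7.94% and 13.1% at 6 hours, and their medians against -0.08 and -0.1. Of 29 listed genes that passed at 6 hours, Dok1 (log2 0.34), Gab2 (0.61) and Klf4 (0.82) missed the threshold without VILI 6 hours replicate 3, and Shc1 (0.27) without replicate 1, alternatives chosen after seeing the data.

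Of 7 other ligands and receptors of the same families, 5 were tested, since Il3 was listed at 0 in all groups and Il5 was below the filter. The medians of the 5 were 0.01 and 0.23. Il5ra, the alpha chain for IL-5 that pairs with Csf2rb, was downregulated at both times, the single gene of the 5 to pass at 0 hours (log2 -1.02, limma adjusted p = 0.23, and -1.39, adjusted p = 0.113), from 0.464 ± 0.0688 FPKM in control to 0.2 ± 0.131 and 0.119 ± 0.0579 FPKM (n = 3). Ptprz1, a phosphatase that binds IL-34, was upregulated at 6 hours (log2 0.79, adjusted p = 0.134). Il3ra (log2 0.23 at 6 hours, limma adjusted p = 0.448), Il34 (0.31, adjusted p = 0.526) and Sdc1 (0.12, adjusted p = 0.527) did not pass.

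Signalling genes below the receptors changed in part. Of 20, 3 were upregulated and 1 downregulated at 0 hours, and 6 were upregulated and 2 downregulated at 6 hours, with list medians of 0.07 and 0.2 on the log2 scale. Stat3, the transcription factor that the G-CSF receptor activates, stood at 29.6 ± 0.854, 37.3 ± 1.94 and 50.6 ± 12.5 FPKM (n = 3) and passed at 6 hours (log2 0.74, limma adjusted p = 0.0731). Tyrobp, an adaptor of myeloid receptors, passed at both times (0.81 and 0.84, adjusted p = 0.0756 and 0.0616), as did the kinase Syk (0.62 and 0.65, adjusted p = 0.0876 and 0.0731). The kinase Fgr passed at 6 hours (1.13, adjusted p = 0.0852). Pik3r1, a subunit of PI3 kinase, was downregulated at 6 hours (-0.35, adjusted p = 0.0949). Jak1, the highest of the list in control, and Jak2, the kinase bound to the common beta chain, did not pass (0.13, adjusted p = 0.466, and 0.21, adjusted p = 0.473, at 6 hours).

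Negative regulators of these receptors showed 3 upregulated and 2 downregulated of 12 at 0 hours and 3 upregulated at 6 hours, with medians of 0.19 and 0.36 on the log2 scale. Socs3, which is induced by STAT3 and blocks G-CSF receptor signalling, was 12.17, 9.819 and 11.26 FPKM in control, 22.74, 44.67 and 30.69 FPKM at 0 hours and 25.49, 100.7 and 158.7 FPKM at 6 hours. All VILI libraries were above all controls (log2 1.5, limma adjusted p = 0.219, and 2.74, adjusted p = 0.0606). The Socs3 log2 fold change at 6 hours was 3.5 without VILI 6 hours replicate 1 and 2.19 without replicate 3. Cish, a target of STAT5, passed at 6 hours (0.91, adjusted p = 0.12), and Dok1, an adaptor that dampens kinase signals, at both times (0.52 and 0.4, adjusted p = 0.174 and 0.218). Inpp5d, a lipid phosphatase, passed at 0 hours (0.57, adjusted p = 0.148). Cbl, the ubiquitin ligase that turns over CSF1R, and Socs1 were downregulated at 0 hours (-0.92 and -0.79, adjusted p = 0.112 and 0.147) and passed upward between the VILI groups (1.34 and 1.15, adjusted p = 0.143 and 0.174). The controls were split for Cbl, at 18.1, 8.583 and 17.4 FPKM, and replicate 2 lay near the VILI 0 hours libraries (6.744, 7.873 and 7.382 FPKM). Without VILI 6 hours replicate 1, 8 of the 12 passed at 0 hours and 7 at 6 hours, in place of 5 and 3, an alternative chosen after seeing the data, in which 4212 of all genes (24.7%) passed at 0 hours and 6921 (40.6%) at 6 hours, in place of 2912 and 3582.

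Of 14 genes known to be induced by colony-stimulating factors, 3 were upregulated at 0 hours and 7 at 6 hours, and 0 were downregulated at either time, with medians of 0.15 and 0.74. Pim1, a survival kinase, rose from 12.9 ± 0.515 to 23.8 ± 3.96 and 38.6 ± 19.8 FPKM (n = 3, log2 0.86 and 1.45, limma adjusted p = 0.196 and 0.0636). Mcl1, which protects neutrophils from apoptosis, passed at both times (0.58 and 0.46, adjusted p = 0.093 and 0.134). The chemokine Ccl2, which recruits monocytes, was 0.767 ± 0.145, 0.478 ± 0.377 and 7.06 ± 5.81 FPKM (n = 3) and passed at 6 hours (2.72, adjusted p = 0.0731). The chemokine Ccl17 (1.2) and Myc (1.36) also passed at 6 hours, with adjusted p = 0.202 and 0.138. VILI 6 hours replicate 3 was the highest library for Pim1, Ccl2, Ccl17 and Myc. Without it 8 of the 14 passed at 6 hours, where 2500 of all genes (14.7%) passed in place of 3582, and the log2 fold change was 2.08 for Ccl2, 0.93 for Myc and 0.49 for Ccl17.

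Factors that drive receptor transcription in myeloid cells held the single gene of the 7 lists with an adjusted p under 0.05 in the fit of all 9 libraries. Without VILI 6 hours replicate 1, 30 of the 75 tested genes of these lists had one at 6 hours and 18 at 0 hours, where 25.5% and 7.93% of all genes did. The single gene was Spi1, which encodes PU.1 and activates Csf1r, Csf2ra and Csf3r. Its level was 8.531, 7.483 and 7.982 FPKM in control, 12.88, 15.49 and 12.02 FPKM at 0 hours and 17.15, 14.31 and 19.17 FPKM at 6 hours. All VILI libraries lay above all controls (log2 0.74, limma adjusted p = 0.0627, and 1.06, adjusted p = 0.02). Cebpb, a factor of emergency granulopoiesis, passed at both times (0.97 and 1.18, adjusted p = 0.131 and 0.0799), Mitf at 6 hours (0.46, adjusted p = 0.121) and Ets2 at 0 hours (0.5, adjusted p = 0.13). Irf8, a factor of monocyte and dendritic cell fate, was downregulated at 0 hours (-0.76, adjusted p = 0.093). In all, 3 of 9 were upregulated and 1 downregulated at 0 hours, and 4 were upregulated at 6 hours, with medians of 0.17 and 0.26. Spi1 is expressed by neutrophils too, whose markers moved with it, and the part of neutrophil numbers was not tested.

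Of 8 tested cytokines that induce colony-stimulating factors, 2 were upregulated and 2 downregulated at 0 hours, and 3 were upregulated and 1 downregulated at 6 hours, with medians of -0.04 and 1.41. Il1b was 3.274, 4.484 and 4.948 FPKM in control, 19.65, 32.46 and 82.67 FPKM at 0 hours and 26.4, 14.0 and 83.39 FPKM at 6 hours, above all controls at both times (log2 3.14, limma adjusted p = 0.0716, and 2.88, adjusted p = 0.0731). Osm passed at both times as well (2.63 and 2.48, adjusted p = 0.103 and 0.107). Il6 was 0.3058, 1.577 and 19.31 FPKM in VILI 6 hours and at most 0.3855 FPKM elsewhere (2.93, adjusted p = 0.188), so that the library highest in Csf2 and Csf3 was also highest in Il6. Without that library the log2 fold change at 6 hours was 1.41 for Il6, 2.18 for Il1b and 1.79 for Osm, and all 3 passed. Il33 and Tslp, cytokines of epithelial and stromal cells, were downregulated at 0 hours (-1.03 and -0.69, adjusted p = 0.202 and 0.138), and Tslp at 6 hours (-0.63, adjusted p = 0.138).

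Proteins that control the decay of colony-stimulating factor mRNA were 8, of which 2 were upregulated and 1 downregulated at 0 hours and 2 upregulated at 6 hours, with medians of 0.12 and 0.14. Zfp36 encodes tristetraprolin, which binds AU-rich elements in Csf2 mRNA and speeds its decay, and it rose from 32.1 ± 2.24 to 83.6 ± 29.2 and 81.6 ± 38.6 FPKM (n = 3, log2 1.33 and 1.21, limma adjusted p = 0.118 and 0.125). Zc3h12a, an RNase of inflammatory mRNAs, passed at 6 hours (1.59, adjusted p = 0.165) with 51.16 FPKM in replicate 3 against 7.483 and 11.47 FPKM in the others, and without replicate 3 the log2 fold change was 0.77 and passed. Zfp36l1, a relative of Zfp36, was downregulated at 0 hours (-0.49, adjusted p = 0.16), and Ybx1, which stabilizes mRNA, passed upward (0.27, adjusted p = 0.197).

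**Figure D5:**
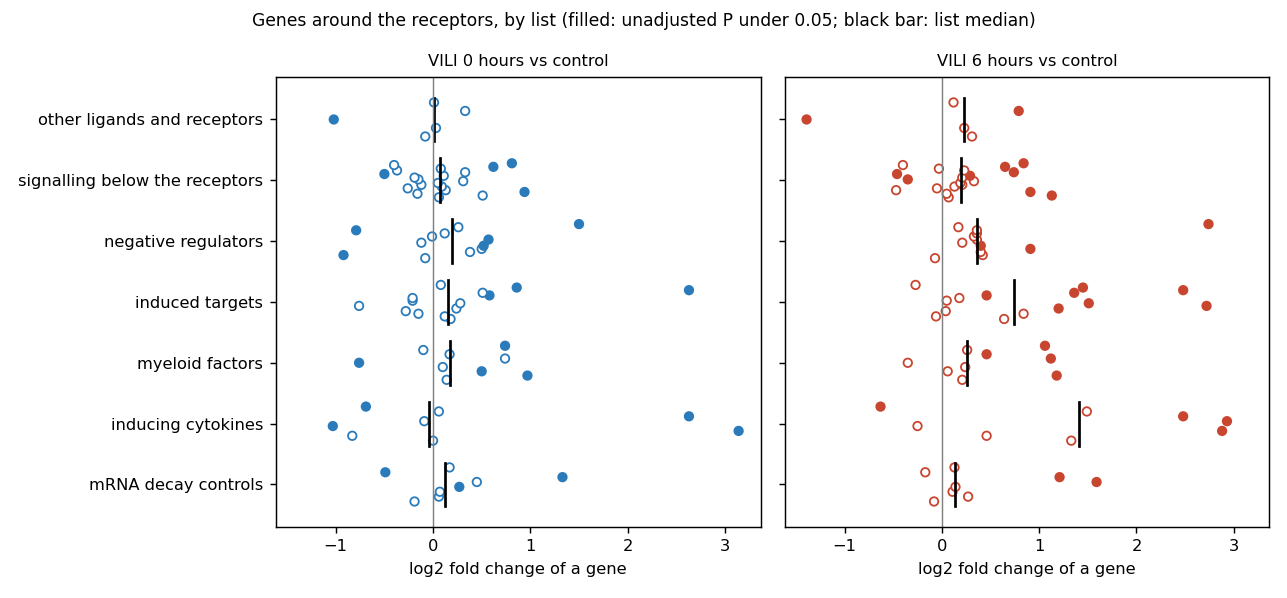
Log2 fold changes on log2(FPKM + 0.1) of single genes (points; filled where the unadjusted limma P was under 0.05) in 7 lists of genes around the receptors, for VILI 0 hours vs control (left) and VILI 6 hours vs control (right), with the median of each list as a black bar. Socs3 at 2.74 and Il1b at 2.88 are among the points farthest to the right at 6 hours, and Il5ra at -1.39 is the lowest.

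The genes whose pattern was most like each receptor or ligand were found as those with the smallest root mean square difference in log2(FPKM + 0.1), centred on the control mean, over the 9 libraries and 13973 genes. For Csf3r these were the cation channel gene Trpm2 (0.29), Tnfsf14 (0.45) and Siglece (0.51). For Csf2rb they were Alox5ap (0.16), needed for leukotriene synthesis, Cebpb (0.18) and Gpr141 (0.18). For Csf3 they were the acute phase genes Saa2 (0.76) and Saa1 (0.86) and Il6 (0.88). For Csf2 they were Tnip3 (0.3), the complement gene Cfb (0.33) and Ccl17 (0.35). Csf2rb2 was closest to Myd88 (0.16), Il17ra (0.2) and Irak3 (0.21), and Csf2ra to S100a11, Hp (0.13 each) and S100a6 (0.14). Csf1 was closest to Rpf2 and Knstrn (0.16 each) and Gm37569 (0.17), and Csf1r to Parp8 (0.08), 5031439G07Rik and Lins1 (0.09 each).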

How the data were processed

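Lung RNA of 9 mice was sequenced by the authors, who aligned reads with TopHat2 2.0.9 and Bowtie2 2.0.6 to GRCm38, built transcripts using Scripture and Cufflinks, and ran Cuffdiff 2.1.1 for FPKM. The versions come from the submitters' processing notes. The deposited values are FPKM per transcript, in 60108 rows without transcript IDs. Cuffdiff divides reads between overlapping transcripts, so single rows are less certain than their sum, and exact zeros can be failed estimates. The study gives read totals per library, which were not used here. FPKM does not show the reads behind a gene's value, so the depth behind each value is unknown, and precision is known only from the 3 mice per group. The sample records and the study's methods name different library kits and sequencers.

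FPKM was summed per gene, with symbols from GENCODE M21 (GRCm38) matched to 23503 of 23713 Ensembl IDs. Genes with a mean of at least 0.1 FPKM (17055) entered limma 3.58.1 (R 4.3.3, eBayes with a trend) on log2(FPKM + 0.1), which understates changes near 0.1 FPKM. Groups came from the sample records. Exact permutation tests (two-sided, over all assignments of libraries to groups, computed with numpy 2.4.6) were run on the 8 genes, on the 8 shares and on the 2 sums. The 8 genes, the 7 pathway lists and the 11 marker lists were chosen with earlier results of these data known. Of each pathway list, up to 6 genes with the smallest P under 0.05 in any comparison and the highest in control were named, with further genes named after their values were seen. A gene of these lists that the rule would name is not reported here. Sequences came from RefSeq (GRCm38.p6). In simulations of VILI 6 hours vs control on 17055 genes, 91.5% of 200 genes changed by a log2 of 1 had a P under 0.05 and 54.5% passed adjustment, and 5.14% of unchanged genes had a P under 0.05. The alternatives were other pseudocounts (0.01 and 1), filters, centring, the highest row, 6 libraries, a replicate block, no trend and each library left out.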

Additional observations from a re-analysis of the deposited data

Results flagged for a closer look

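For 3 of the 8 genes, the change from control differed between the time points at an unadjusted P under 0.05 in the limma test between the VILI groups, in which the common controls cancel. Csf2rb2 was 1.02 above control on the log2 scale at 6 hours and 0.33 at 0 hours, a log2 difference of 0.68 (limma adjusted p = 0.426). Csf2 was 1.3 above control at 6 hours and 0.05 at 0 hours, a log2 difference of 1.25 (limma adjusted p = 0.455). Csf3 was listed at 0 in all controls and reached 1.17 and 17.66 FPKM in 2 libraries of VILI 6 hours (log2 difference between the VILI groups 3.35, limma adjusted p = 0.468). For all 3 genes VILI 6 hours replicate 3 was the highest library, and without it none of the 3 differences passed (0.41, 0.56 and 1.47). The Csf3 difference missed the threshold in 15 of 18 alternatives, pseudocounts of 0.01 (4.33) and 1 (1.74) among them. The cause was not tested.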

How the results depend on the processing

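The differences and counts of the 8 genes were computed again under 18 alternatives (17 for Csf3 at 0 hours), and the shares under 10. The pathway lists and their changed genes were computed again without VILI 6 hours replicate 1 or 3 only, chosen after seeing the data, and the marker lists were not. The count of changed genes among the 8 stayed within 1.5 times its value in VILI 0 hours vs control (3, range over left-out libraries 2 to 3) and VILI 6 hours vs control (6, range 4 to 6). Between the VILI groups it was 3, fell to 0 with only the 6 libraries compared and ran from 0 to 4 over left-out libraries (0 without replicate 3 of either VILI group, and 1 without VILI 0 hours replicate 1). At an unadjusted limma P under 0.05, Csf3r and Csf2rb kept their calls against control at both times, and Csf2ra and Csf2rb2 at 6 hours, in all 18. The adjusted p of Csf3r was 0.0021 to 0.174 at 0 hours and 0.00382 to 0.132 at 6 hours, and under 0.05 in 12 and 13 of 18. Csf1 at 0 hours lost its call in 9 of 18, Csf2 at 6 hours in 4 and Csf3 at 6 hours in 7.

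Differences that missed the threshold with all libraries changed sign in places. Over left-out libraries the log2 difference ran from -0.25 to 0.2 for Csf1 at 6 hours (0.05 with median-centred libraries), from -0.14 to 0.28 for Csf2 at 0 hours and from -0.16 to 0.21 for Csf1r at 6 hours. Between the VILI groups it ran from -0.02 to 0.35 for Csf1r, from -0.01 to 0.46 for Csf2rb and from -0.57 to 0.06 for Csf3r. The Csf2rb2 share at 6 hours minus control ran from -0.0297 to 1.95 percentage points. The cause was not tested.

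Deviations from the group means had correlations of -0.25 to 0.03 over 9 pairs of same-numbered libraries and -0.15 to 0.19 over 18 other pairs. With means of 3 libraries, these values cannot settle whether the numbers pair libraries. With a replicate block, 2, 6 and 2 of the 8 genes changed, and 2609, 3139 and 1505 of all genes in place of 2912, 3582 and 1757. Over all genes, without VILI 6 hours replicate 1 the count was 6921 at 6 hours and 3965 between the VILI groups. The count at 6 hours was 2281 without control replicate 2 and 2326 without control replicate 3, and at 0 hours it was 1927 and 1817 without control replicates 1 and 2. Only the 6 libraries compared gave 4805 genes at 0 hours and 1070 between the VILI groups.

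The reads behind each value are unknown, so a level listed at 0, such as that of Csf3 in control, cannot be told from a level too low to detect. With 3 mice per group, differences between libraries of VILI 6 hours weigh heavily on Csf2 and Csf3.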

Other observations

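Markers of other cell types are given as values only, and their counts stand against 7.06% of all tested genes upregulated and 10.0% downregulated at 0 hours and 7.94% and 13.1% at 6 hours. Of 8 fibroblast markers, 1 was upregulated and 2 downregulated at 0 hours and 4 downregulated at 6 hours, and their summed level was 1478 to 1587, 1185 to 1390 and 848.3 to 1243 FPKM in control, at 0 hours and at 6 hours. Of 8 endothelial markers, 2 were downregulated at 0 hours and 3 at 6 hours (sums 1350 to 1498, 1240 to 1371 and 1183 to 1289 FPKM). Of 9 alveolar type 2 markers, 1 was upregulated at 0 hours and 1 downregulated at 6 hours. Of 6 patrolling monocyte markers, 0 changed at 0 hours and 1 was downregulated at 6 hours by limma at an unadjusted P under 0.05. Of 8 tested markers of T cells and innate lymphoid cells, which can make GM-CSF, 1 was upregulated and 1 downregulated at 0 hours and 1 downregulated at 6 hours. Of 6 tested markers of mast cells and basophils, 1 was downregulated at each time, and of 6 cardiac muscle markers none passed limma at that P, at either time.

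The ratio of Csf3r to Csf1r, chosen after the values were seen and given with no test, was 0.237 to 0.286 in control, 1.1 to 2.58 at 0 hours and 1.03 to 1.15 at 6 hours. The ratio of Csf1r to its ligand gene Csf1 was 1.65 to 2.08, 2.22 to 2.9 and 1.51 to 2.47.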
